A study of Mus musculus with 48 samples.

Results

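Visceral white adipose tissue of female and male mice was compared after 2 weeks on a regular diet, gene by gene over the autosomes. Of the 48 libraries in the series, 6 enter the comparison. They are 3 from females (animals numbered 1, 2 and 4) and 3 from males (numbered 6, 7 and 8), chosen by the tissue, diet, time and sex given in the labels. All were C57BL6/J mice from Charles River, an inbred laboratory strain. They ate standard rodent chow (Teklad) from 8 weeks of age and carried no transgene or drug treatment that the labels name. Each library was made from 200 ng of total RNA by a strand-specific poly(A) mRNA protocol. Of the 30055 gene symbols measured, 26231 lie on autosomes, and 17438 of these passed the filter on low counts and were tested. The same female to male comparison after 12 weeks on the regular diet and after 2 weeks on a high-fat diet (45% of calories from fat), each with 3 and 3 libraries, is set beside it at the end.

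Visceral white fat stores triglyceride in adipocytes held in a stroma of progenitor cells, mesothelium, vessels and immune cells. Estrogens and androgens act on these cells through nuclear receptors, and male and female rodents differ in how visceral depots expand and how insulin-sensitive they stay. In mice the large visceral pads lie against the reproductive tract, along the epididymis in males and along the uterus and ovary in females. The labels say visceral and do not name the pad.

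The 6 libraries held 53.6 to 105 M counts, and the Y-linked gene Ddx3y was at or below 0.562 CPM (counts scaled to a common library size) in the females and at or above 62.2 CPM in the males, as labelled. All 20 adipocyte markers were at 1 CPM or more in each library. Epididymal transcripts were uneven among the males. Crisp1, a protein of the epididymal duct, was at 970, 0.586 and 2680 CPM in males 6, 7 and 8 and at 0 in the 3 females. Gpx5, an epididymal glutathione peroxidase, was at 2980, 0.302 and 0.563 CPM in males 6, 7 and 8 and at or below 0.0201 CPM in the females. Males 6 and 8 therefore stand apart from male 7, and their epididymis lists summed to 12300 and 2930 CPM against 180 CPM in male 7 and 109 to 118 CPM in the females. Epithelial genes of the reproductive tract followed the same order, with sums of 321, 65.9 and 262 CPM in males 6, 7 and 8 and 18.2 to 31.3 CPM in the females. Females 2 and 4 carried skeletal muscle transcripts: the fast myosin Myh4 was at 0.242, 6.56 and 33.6 CPM in females 1, 2 and 4 and at or below 0.0557 CPM in the males. The sum of the muscle list did not set these females apart. It was 85.0, 180 and 276 CPM in females 1, 2 and 4 and 121, 106 and 257 CPM in males 6, 7 and 8. Ovary markers summed to 10.2 to 16.2 CPM in all 6 libraries, females and males alike. Values without males 6 and 8 are given beside the main results, and, where muscle or thermogenic genes are involved, values without females 2 and 4.

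**Figure D1:**
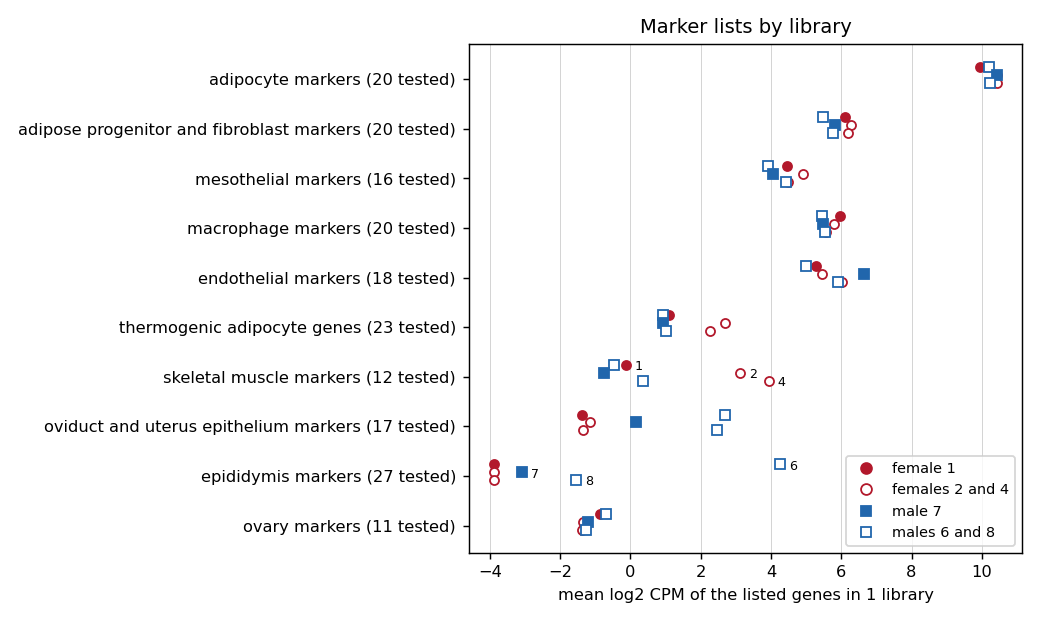
Mean log2 CPM of 10 marker lists (x axis) in each of the 6 libraries, females as circles and males as squares, filled for female 1 and male 7 and open for the others. The epididymis list is at 4.25 in male 6, -1.56 in male 8 and -3.10 in male 7, and the skeletal muscle list at 3.11 and 3.94 in females 2 and 4 and -0.14 in female 1.

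Between females and males, 342 autosomal genes (1.96% of those tested) were higher in females and 403 (2.31%) were lower, together 4.27%, at a Benjamini-Hochberg adjusted p under 0.05 in edgeR's quasi-likelihood test. The median log2 fold change, female over male, was 1.79 among the higher genes and -2.88 among the lower genes, and 0.01 over all genes tested. Of all genes tested 50.6% had a positive change. That share and the shares of 1.96% higher and 2.31% lower are the reference for each list below. All 3 females lay above all 3 males for 330 of the 342, and below them for 377 of the 403. The same separation was found in 12.7% of all tested genes in each direction. Protein-coding genes made up 285 of the higher genes and 397 of the lower genes, and immunoglobulin segments made up 53 and 1. The number of calls depended on the libraries. With 1 library left out, 191, 168, 139, 100, 166 and 145 genes were higher without female 1, female 2, female 4, male 6, male 7 and male 8. The lower genes numbered 107, 87, 82 and 122 without female 1, female 2, female 4 and male 6, and 314 and 309 without male 7 and male 8. In every one of the 6 such fits 73 of the 342 and 58 of the 403 were called.

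Leaving out males 6 and 8 together left 1 male library, whose spread was assumed to match that of the other groups. The fit then called 12 genes higher (0.0648% of its 18514 tested genes) and 30 lower (0.162%) in females. The direction was kept by 342 of the 342 higher genes and 394 of the 403 lower genes. Male 7 alone lay beyond all 3 females for 334 of the higher and 388 of the lower genes. These genes had been called with male 7 among the males. The kept direction and the place of male 7 are therefore largely set by that choice, and they do not test the calls. Male 6 or male 8 exceeded male 7 more than 4-fold, in the scaled level, for 96 of the 403 lower genes and 2 of the 342 higher genes. The p-values measure the spread between animals as the labels give them, and in whole tissue fewer cells of a type and less RNA per cell cannot be told apart.

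**Figure D2:**
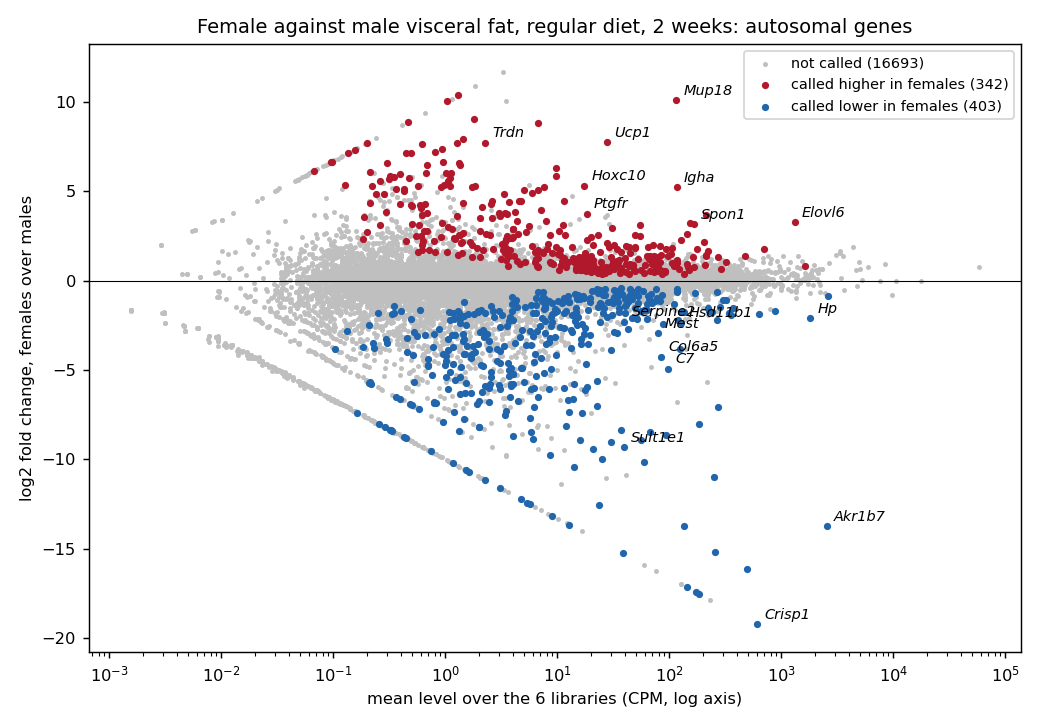
Each point is 1 tested autosomal gene, with its mean level over the 6 libraries in CPM on a log x axis and its log2 fold change, females over males, on the y axis. The 342 genes called higher in females are red and the 403 called lower are blue, and the median change is 1.79 for the red points and -2.88 for the blue points.

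Genes of steroid action and metabolism held the difference with the smallest p in the comparison. Sult1e1, the estrogen sulfotransferase that inactivates estrogens by sulfation, was at 0.121, 0.141 and 0.0992 CPM in females 1, 2 and 4. Its level in males 6, 7 and 8 was 92.9, 62.4 and 78.2 CPM. Every male was far above every female, and the males were close to each other. The gene lies at chr5:87575969-87591594 (GRCm38). The log2 fold change was -9.32 ± 0.51 (SE; 3 against 3) with an adjusted p of 1.1e-09, and it was -9.00 (5.8e-08) without males 6 and 8. Hsd11b1, which regenerates active glucocorticoid inside cells, was at 47.2, 36.1 and 40.8 CPM in the females and 249, 184 and 206 CPM in the males. The groups did not overlap, and the change of -2.36 ± 0.33 (adjusted p 0.00061) was -2.15 (0.043) without males 6 and 8. Srd5a2, a steroid 5-alpha-reductase that makes dihydrotestosterone, was at or below 0.0496 CPM in females and at 39.2, 7.70 and 4.35 CPM in males 6, 7 and 8. Male 6, the library with most epididymal RNA, was the highest, and the call (adjusted p 0.027) was lost without female 1, female 2, female 4 or male 6, with adjusted p up to 0.11.

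Higher in females were Akr1c14 and Pgr. Akr1c14, a 3-alpha-hydroxysteroid dehydrogenase, was at 77.0, 15.7 and 25.4 CPM in females 1, 2 and 4 and at 4.75, 8.41 and 7.21 CPM in the males. The groups did not overlap, although female 1 was well above the other females, and the change was 2.53 ± 0.48 (adjusted p 0.0069). Pgr, the progesterone receptor and a classical estrogen-induced gene, was at 37.7, 2.42 and 4.35 CPM in the females and at 0.297, 0.639 and 0.235 CPM in the males. Female 1 again stood apart. The change was 5.26 ± 1.02 (adjusted p 0.0081), and it was 3.13 (0.050) without female 1, where the call was lost. Srd5a2, Akr1c14 and Pgr were not called without males 6 and 8, with changes of -8.62, 2.23 and 4.53 (adjusted p 0.19, 0.29 and 0.32). Of the 28 genes on the list of steroid receptors and enzymes 2 were higher and 3 lower, with a median change of 0.03. The estrogen receptor Esr1, named here for its role, was at 121, 192 and 146 CPM in females and 77.4, 77.2 and 49.4 CPM in males, without overlap and with an adjusted p of 0.13. The glucocorticoid receptor Nr3c1 gave a change of 0.06 ± 0.26.

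Promoters of 5 genes whose female to male difference was called with each library left out are shown, 3 lower in females (Sult1e1, C7, Col6a5) and 2 higher (Ptgfr, Mmp3). Each is the 250 bases before the RefSeq start, on GRCm38.p6, written 5′ to 3′ on the gene's strand. Capitals mark GGTCA or its reverse complement TGACC, the half-site of the estrogen response element.
Sult1e1, chr5:87591612-87591861, minus strand: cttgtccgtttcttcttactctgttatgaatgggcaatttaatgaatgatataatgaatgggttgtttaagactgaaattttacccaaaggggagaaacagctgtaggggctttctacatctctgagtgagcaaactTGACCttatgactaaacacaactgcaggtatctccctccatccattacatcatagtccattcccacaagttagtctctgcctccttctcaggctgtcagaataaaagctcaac
C7, chr15:5063774-5064023, minus strand: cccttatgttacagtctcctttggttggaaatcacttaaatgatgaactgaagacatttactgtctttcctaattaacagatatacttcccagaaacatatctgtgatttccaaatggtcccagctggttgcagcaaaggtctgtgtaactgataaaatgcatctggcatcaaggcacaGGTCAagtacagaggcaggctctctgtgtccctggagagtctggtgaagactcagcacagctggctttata
Col6a5, chr9:105960644-105960893, minus strand: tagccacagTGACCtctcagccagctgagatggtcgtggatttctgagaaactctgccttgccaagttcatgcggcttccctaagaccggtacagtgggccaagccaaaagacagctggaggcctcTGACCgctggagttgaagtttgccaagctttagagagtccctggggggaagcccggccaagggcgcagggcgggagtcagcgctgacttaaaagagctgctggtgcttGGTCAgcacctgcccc
Ptgfr, chr3:151837529-151837778, minus strand: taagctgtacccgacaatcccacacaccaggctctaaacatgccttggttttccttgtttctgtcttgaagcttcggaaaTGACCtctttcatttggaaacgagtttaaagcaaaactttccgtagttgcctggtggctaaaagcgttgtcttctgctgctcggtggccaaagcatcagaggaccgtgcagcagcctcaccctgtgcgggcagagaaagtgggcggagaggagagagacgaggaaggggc
Mmp3, chr9:7445572-7445821, plus strand: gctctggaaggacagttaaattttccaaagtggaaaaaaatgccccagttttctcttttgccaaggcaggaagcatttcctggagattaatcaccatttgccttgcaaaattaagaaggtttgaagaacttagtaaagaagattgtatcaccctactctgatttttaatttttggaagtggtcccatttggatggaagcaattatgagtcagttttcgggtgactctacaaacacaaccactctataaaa

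The Sult1e1, C7 and Ptgfr windows held 1 half-site each, Col6a5 held 3 and Mmp3 held 0. In Sult1e1 the match began 113 bases before the start, in C7 71 bases and in Ptgfr 170 bases. RefSeq starts were found for 12215 of the 17438 tested genes, 15433 starts in all, and 34.8% of those windows held a half-site on either strand. The share was 26.9% of 249 starts of genes higher in females and 38.9% of 401 starts of genes lower in females. The androgen and glucocorticoid half-site AGAACA, or TGTTCT on the other strand, was in 11.6% of all windows, 12.4% and 14.2% for higher and lower genes, and in 0 of the 5 shown. The full estrogen response element and the full androgen and glucocorticoid response element, inverted repeats of each half-site with a 3-base spacer, were each found in 2 of the 15433 windows, and in 0 at called genes. These are matches of letters, not sites of binding.

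Among genes that mark position along the body axis, 3 of 47 were higher in females and 0 lower, with a median change of -0.01. Hoxc10, a posterior homeobox gene, was at 26.7, 38.2 and 36.0 CPM in females 1, 2 and 4 and at 0.613, 0.888 and 1.02 CPM in males 6, 7 and 8. All males were near 1 CPM and all females far above them. The change was 5.31 ± 0.48 with an adjusted p of 3.4e-06, and 5.24 (0.0064) without males 6 and 8. Its neighbour Hoxc9 was at 13.9, 15.7 and 14.9 CPM against 6.54, 5.17 and 4.31 CPM, a change of 1.47 ± 0.26 (adjusted p 0.0047). Hoxa9 was at 23.0, 17.6 and 19.1 CPM against 4.46, 1.62 and 4.22 CPM, a change of 2.53 ± 0.50 (adjusted p 0.0096). Neither group overlapped the other for any of the 3. Hoxc9 and Hoxa9 were not called without males 6 and 8, with changes of 1.52 and 3.62 (adjusted p 0.16 and 0.075). In the same cluster Hoxc4 was at 6.39 to 7.21 CPM in females and 12.3 to 17.2 CPM in males, with a change of -1.06 ± 0.31 that missed the threshold (adjusted p 0.056). Hoxb9, which is not on the list and was picked after its values were seen, was lower in females (-3.17 ± 0.63, adjusted p 0.0092). It was at 31.3, 7.01 and 13.3 CPM in males 6, 7 and 8, and the call was lost without female 2, female 4 or male 6.

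Ptgfr, the prostaglandin F receptor, was at 36.4, 40.0 and 25.3 CPM in the females and 1.97, 1.86 and 3.78 CPM in the males. The groups were far apart, with a change of 3.73 ± 0.43 (adjusted p 9.4e-05) and of 4.18 (0.012) without males 6 and 8. Spon1, a secreted matrix protein, was at 361, 331 and 202 CPM against 21, 44.4 and 36.2 CPM. Its change was 3.14 ± 0.49 (adjusted p 0.0017). Trdn, triadin of the calcium release complex of muscle, was at 4.51, 5.40 and 3.52 CPM in females 1, 2 and 4 and at or below 0.0371 CPM in males. Female 1, where the fast myosin was lowest among the females, lay between females 2 and 4. The change of Trdn was 7.70 ± 0.71 (adjusted p 4.2e-06), and 7.82 without males 6 and 8. The part of muscle in the sample in the Trdn values was not tested. Trdn and B3galt1 were picked after their values were seen. The acid-sensing channel Asic2 was also higher (3.04 ± 0.57, adjusted p 0.0069), as was the galactosyltransferase B3galt1 (2.26 ± 0.28, adjusted p 0.00024). The oxytocin receptor Oxtr was at 726, 82.6 and 380 CPM in females 1, 2 and 4 and 22.8 to 40.8 CPM in males. The females differed widely among themselves, and the call of Oxtr (3.66 ± 1.01, adjusted p 0.046) was lost without female 1, female 4, male 6, male 7 or male 8, with adjusted p up to 0.15. Spon1, Asic2 and Oxtr were not called without males 6 and 8, with changes of 2.75, 3.46 and 3.71 (adjusted p 0.17, 0.17 and 0.48).

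**Figure D3:**
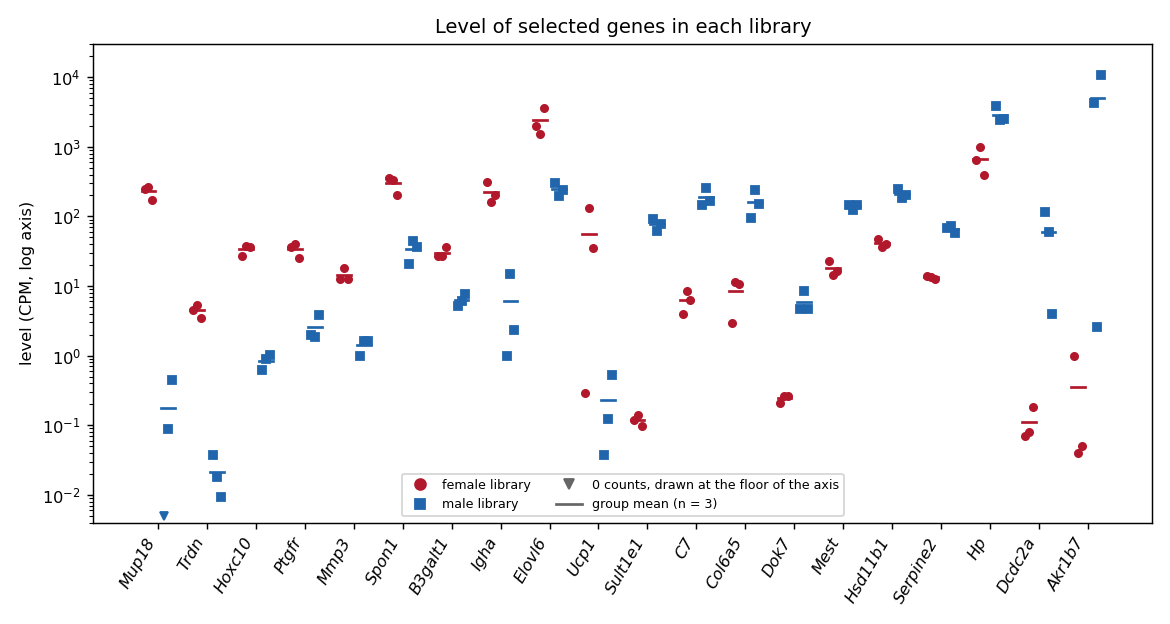
Level in CPM (log y axis) of 20 genes in each of the 6 libraries, females in red and males in blue, with a line at each group mean (n = 3) and a triangle at the floor for 0 counts. The groups are separate for Hoxc10, Ptgfr, Sult1e1, C7 and Mest, whereas Ucp1 is high in females 2 and 4 alone and Akr1b7 in males 6 and 8 alone.

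C7, a late component of the complement membrane attack complex, was at 3.98, 8.42 and 6.25 CPM in the females and 146, 257 and 165 CPM in the males. Male 7 was the highest, and the change of -4.93 ± 0.65 (adjusted p 0.00038) was -5.37 (0.0031) without males 6 and 8. C6, the component before it, was also lower in females (22.8, 36.2 and 32.1 CPM against 107, 97.3 and 80.5 CPM). Its change of -1.64 ± 0.35 (adjusted p 0.014) was not called without female 1, female 4 or male 6, with adjusted p up to 0.067. Cd55, a surface protein that restrains complement, was higher in females at 124, 101 and 103 CPM against 35.6, 52.0 and 41.6 CPM (1.34 ± 0.22, adjusted p 0.0027). The central component C3 was at 2680, 7250 and 5220 CPM against 1060, 1780 and 1880 CPM, without overlap, and was not called (adjusted p 0.082). Of 22 complement genes 1 was higher (4.55%) and 2 lower (9.09%), beside 1.96% and 2.31% over all genes tested, with a median change of 0.13. C6 and Cd55 were not called without males 6 and 8, with changes of -1.68 and 1.07 (adjusted p 0.17 and 0.22).

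Of 28 collagen genes 0 were higher and 3 lower (median change -0.46), and of 36 matrix remodelling genes 2 were higher and 5 lower (median -0.02). The collagen list summed to 5630, 5480 and 7230 CPM in females 1, 2 and 4. In males 6, 7 and 8 the sums were 4610, 12700 and 8810 CPM, with male 6 below every female. The collagen median was 0.42 at 12 weeks on the regular diet, with 3 higher and 2 lower, and -0.14 on the high-fat diet. Col6a5, a collagen VI chain, was at 2.94, 11.6 and 10.7 CPM in the females and 94.1, 240 and 149 CPM in the males. All males were above all females, and the change was -4.26 ± 0.65 (adjusted p 0.0013), and -4.84 (0.0062) without males 6 and 8. The basement membrane chain Col4a3 was lower as well (-1.79 ± 0.34, adjusted p 0.0076), and Col23a1 was called (adjusted p 0.017) but not without female 1, female 2, female 4 or male 8, with adjusted p up to 0.087. Mmp3, a matrix metalloprotease of stromal cells, was higher in females at 12.5, 18.3 and 12.7 CPM against 1.00, 1.65 and 1.62 CPM. Its change was 3.34 ± 0.44 (adjusted p 0.00038). The macrophage elastase Mmp12 was lower in females, at 2.35, 1.51 and 1.14 CPM against 7.56, 28.7 and 10.7 CPM. Its call (-3.23 ± 0.71, adjusted p 0.018) was lost without female 2, female 4 or male 7, with adjusted p up to 0.085. The protease inhibitor Timp4 (51.6 to 64.1 CPM against 175 to 210 CPM, adjusted p 0.011) was lower, and its call was lost without female 1 or female 2 (adjusted p up to 0.052). Sparc, an abundant matrix protein, was at 1820, 1810 and 1840 CPM against 3200, 3770 and 3040 CPM. The female values were almost identical, and the call (-0.87 ± 0.19, adjusted p 0.015) was lost without female 1, female 2, female 4 or male 7, with adjusted p up to 0.059. Mmp3, Col4a3, Col23a1, Timp4 and Sparc were not called without males 6 and 8, with changes of 3.14, -1.95, -1.10, -1.89 and -1.05 (adjusted p 0.084, 0.08, 0.55, 0.14 and 0.12). The serine protease inhibitor Serpine2, picked after its values were seen, was at 13.9, 13.7 and 12.8 CPM against 67.7, 72.4 and 57.7 CPM (-2.29 ± 0.25, adjusted p 5.8e-05). Dok7, an adaptor of the muscle receptor kinase and picked likewise, was at 0.207, 0.262 and 0.265 CPM against 4.75, 8.43 and 4.65 CPM (-4.59 ± 0.47, adjusted p 1.7e-05).

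On the list of genes named for the expansion of fat pads, 5 of 13 were lower in females, 0 were higher and 8 were not called, beside 2.31% lower over all genes tested. The median change over the 13 was -1.03. Without males 6 and 8, and likewise without females 2 and 4, 0 of the 13 were called. Mest, a lipid droplet-associated protein that rises in expanding fat, was at 22.8, 14.3 and 16.6 CPM in the females and at 146, 125 and 146 CPM in the males. The groups did not overlap, and the change was -2.96 ± 0.47 (adjusted p 0.0020), and -2.80 (0.063) without males 6 and 8. Sfrp5, a secreted WNT inhibitor made by adipocytes, was at 4.27, 2.01 and 1.47 CPM against 18.5, 14.1 and 12.6 CPM (-2.54 ± 0.52, adjusted p 0.011). The Sfrp5 call was lost without female 2 or female 4, with adjusted p up to 0.062. Nnat, neuronatin, was at 180, 198 and 69.2 CPM against 456, 671 and 469 CPM (adjusted p 0.037). The autophagy regulator Trp53inp2 (-1.08 ± 0.29) and the transcription factor Klf14 (-1.72 ± 0.48) were called at adjusted p of 0.042 and 0.050. All 3 of these calls were lost in each of the 6 fits with 1 library left out, with adjusted p from 0.058 to 0.17, and their direction was kept. Sfrp5 was not called without males 6 and 8, with a change of -2.45 (adjusted p 0.16). The list held 1 or 2 lower genes in those fits.

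Among 28 adipokines and secreted hormones 0 were higher and 4 lower in females (median change 0.07). Hp, haptoglobin, was at 638, 994 and 394 CPM in the females and 3840, 2400 and 2510 CPM in the males. The groups did not overlap, and Hp was lower in females in every left-out fit (-2.11 ± 0.40 with all 6 libraries, adjusted p 0.0070). The chemerin gene Rarres2 was at 34.2, 34.7 and 18.7 CPM against 121, 78.5 and 71.9 CPM (-1.63 ± 0.29, adjusted p 0.0046). Bmp7 was at 1.52 to 1.65 CPM in females and 22.2, 4.54 and 7.53 CPM in males 6, 7 and 8, and its call (adjusted p 0.0093) was lost without male 6 (0.061). Hp, Rarres2 and Bmp7 were not called without males 6 and 8, with changes of -1.83, -1.43 and -1.50 (adjusted p 0.17, 0.13 and 0.37). Leptin (Lep) was at 399, 169 and 195 CPM in females and 594, 564 and 391 CPM in males. Female 1 overlapped male 8, and the change of -1.02 ± 0.48 was not called (adjusted p 0.25). Adipoq, which encodes adiponectin, was at 3360, 4010 and 3340 CPM against 3790, 3060 and 2940 CPM, with overlap.

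Of 24 genes of fatty acid and triglyceride synthesis 2 were higher in females and 0 lower, 22 of the 24 had a positive change, and their median was 1.01. Both called genes encode elongases. Elovl5, which extends polyunsaturated fatty acids, was at 229, 323 and 377 CPM in the females and at 122, 127 and 107 CPM in the males. The change was 1.39 ± 0.19 (adjusted p 0.00058), with no overlap. Elovl6, which extends palmitate to stearate, was at 2020, 1550 and 3590 CPM against 306, 199 and 237 CPM. Every female was above every male, and the call of Elovl6 (3.27 ± 0.80, adjusted p 0.028) was lost without female 1, female 4, male 6, male 7 or male 8 (adjusted p up to 0.10). Elovl5 and Elovl6 were not called without males 6 and 8, with changes of 1.28 and 3.58 (adjusted p 0.093 and 0.36). Fatty acid synthase (Fasn) was at 4910, 2720 and 5920 CPM against 1720, 2150 and 1140 CPM, and ATP citrate lyase (Acly) at 5290, 3790 and 11500 CPM against 2040, 1580 and 1890 CPM. Neither was called (adjusted p 0.19 and 0.18), although neither overlapped. In cholesterol synthesis 1 of 23 genes was higher, Dhcr7 (1.62 ± 0.44, adjusted p 0.045), and it was not called in any of the 6 fits with 1 library left out (adjusted p 0.059 to 0.19).

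Thermogenic adipocyte genes were higher in females by 7 of 23 called and 0 lower, with a median of 1.01. Within these 6 libraries the differences of Ucp1, Cidea and Otop1 rested on females 2 and 4. For Dio2, Cox8b and Kcnk3 female 1 also lay above every male. The same list in the other comparisons is given at the end. Ucp1, the uncoupling protein of brown and beige fat, was at 0.294, 131 and 35.6 CPM in females 1, 2 and 4 and at 0.0371, 0.124 and 0.526 CPM in the males. Female 1 lay within the range of the males. Cidea, a lipid droplet protein of brown fat, was at 5.24, 93.7 and 63.2 CPM in the females and 5.40 to 7.93 CPM in the males, and the proton channel Otop1 was at 0.553, 15.9 and 7.36 CPM against 0.576 to 0.976 CPM. With 1 library left out the thermogenic list had 0 to 7 calls, and Ucp1 lost its call without female 2, male 6 or male 7. Without females 2 and 4 the list had 0 calls and a median of -0.09, the change of Ucp1 was 0.19, and Cidea and Otop1 turned to -0.43 and -0.53. Cox8b was at 28.1, 57.8 and 51.9 CPM against 15.7, 10.3 and 11.0 CPM, without overlap. Kcnk3 was at 75.0, 101 and 141 CPM against 31.2, 40.8 and 50.9 CPM, also without overlap. Their changes were 1.89 and 1.36, and 1.18 and 0.87 without females 2 and 4. Both calls (adjusted p 0.029 and 0.040) were lost in 5 of the 6 left-out fits. Dio2, which activates thyroid hormone, was at 4.68, 12.8 and 3.80 CPM against 0.724, 1.14 and 1.06 CPM, without overlap. Its change was 2.86 ± 0.61 (adjusted p 0.014) and 2.26 without females 2 and 4, and the Dio2 call was lost without female 2 or male 6. The same females held the skeletal muscle transcripts: 6 genes of that list of 12 were higher and 0 lower, with 0 called without females 2 and 4. Of its 12 genes 4, 12 and 12 were at 1 CPM or more in females 1, 2 and 4, and 4, 3 and 5 in males 6, 7 and 8. The part of muscle or brown fat in the sample in the thermogenic values was not tested. In fatty acid oxidation 2 of 30 genes were higher and 1 lower. The liver-type carnitine transferase Cpt1a was lower at 57.2, 58.7 and 71.6 CPM against 98.2, 113 and 118 CPM (-0.81 ± 0.17, adjusted p 0.012), and not called without female 1 or female 2 (adjusted p up to 0.059). Its muscle-type counterpart Cpt1b was higher (2.03 ± 0.56, adjusted p 0.047) and at -0.48 without females 2 and 4.

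**Figure D4:**
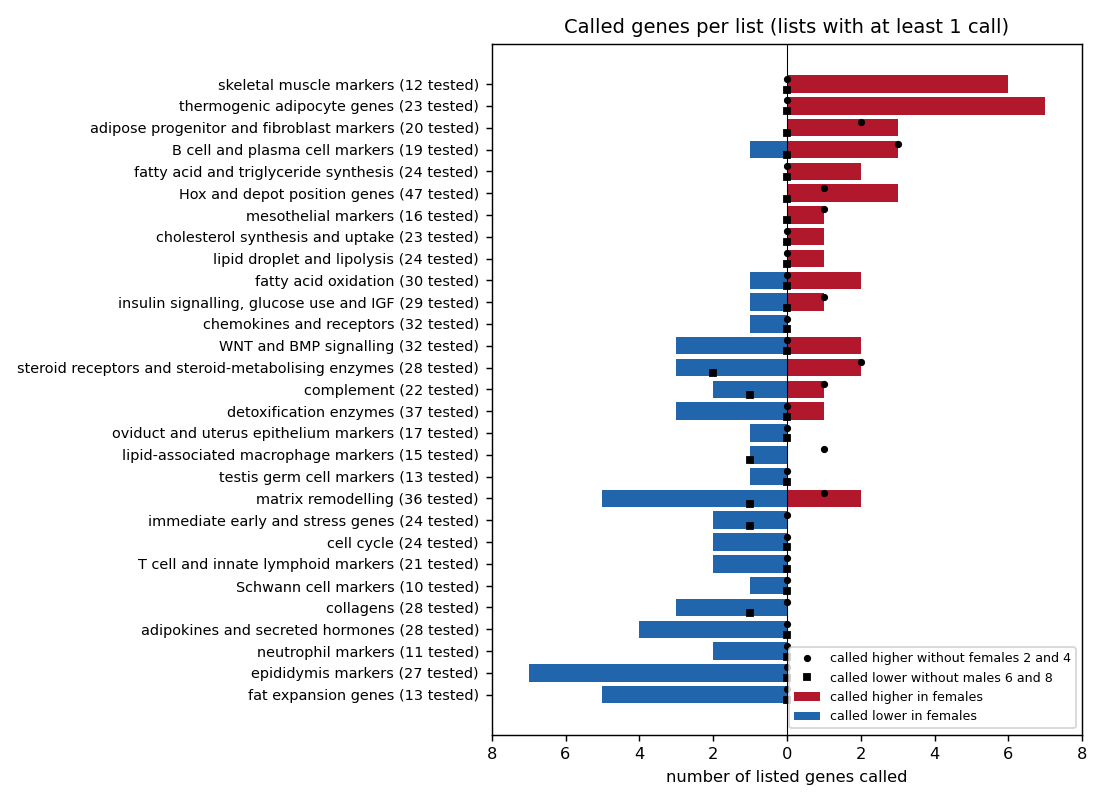
Number of genes called higher in females (red, right) and lower in females (blue, left) in each list with at least 1 call, with the number tested in brackets. Black circles give the higher calls without females 2 and 4 and black squares the lower calls without males 6 and 8. The fits without a pair of libraries call few genes in all, 66 higher without females 2 and 4 and 30 lower without males 6 and 8, and most lists fall to 0 or 1 in them.

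Immunoglobulin genes made up 53 of the 342 genes higher in females, a group picked after its values were seen. Of 133 variable segments tested 41 were higher and 0 lower, with a median change of 3.67. Their summed level was 281, 179 and 175 CPM in females 1, 2 and 4 and 39.5, 56.7 and 40.2 CPM in males 6, 7 and 8, without overlap. Igha, the constant region of IgA, was at 316, 160 and 204 CPM against 1.00, 15 and 2.34 CPM (5.22 ± 0.95, adjusted p 0.0054). Igj, the chain that joins IgA and IgM into polymers, was at 153, 69.0 and 70.4 CPM against 12.2, 12.9 and 8.76 CPM (3.11 ± 0.52, adjusted p 0.0032). The IgG2b gene Ighg2b was also higher (6.28 ± 1.15, adjusted p 0.0056), as was the kappa constant gene Igkc (2.62 ± 0.49, adjusted p 0.0066). Ighm, the constant region of IgM, went the other way at 93.5, 144 and 91.7 CPM against 377, 411 and 329 CPM. Its change of -1.76 ± 0.39 (adjusted p 0.018) was not called without female 1, female 4 or male 6 (adjusted p up to 0.088). Each of Igha, Igj, Ighg2b and Igkc was called in all 6 fits with 1 library left out, whereas the variable segments called in them numbered 15, 18, 15, 6, 18 and 10 without female 1, female 2, female 4, male 6, male 7 and male 8. Without males 6 and 8, 0 of the 155 immunoglobulin genes were called, and the adjusted p of Igha, Igj, Ighg2b and Igkc were 0.21, 0.2, 0.25 and 0.24, with changes of 3.92, 2.91, 6.06 and 2.57. Some variable segments are close to each other in sequence, so reads can move between those. Of 19 B cell and plasma cell markers 3 were higher and 1 lower, and the 3 are among these chains.

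Markers of other immune cells showed few calls. Macrophage, dendritic cell and mast cell markers had 0 calls of 20, 12 and 11, with median changes of 0.26, 0.08 and 0.18. The neutrophil markers had 0 higher and 2 lower of 11, Camp and S100a8. S100a8 was at 1.21, 0.644 and 0.695 CPM in females and 9.60, 2.89 and 3.30 CPM in males 6, 7 and 8, highest in male 6. T cell and innate lymphoid markers had 0 higher and 2 lower of 21. The natural killer receptor Klrb1c was at 101 CPM in male 6 and at 1.03 to 2.01 CPM in the other 5 libraries, and the transcription factor Gata3 was at 34.1, 2.24 and 95.9 CPM in males 6, 7 and 8. The calls of Camp, S100a8, Klrb1c and Gata3 were lost without male 6, among other libraries, with adjusted p up to 0.19, 0.18, 0.77 and 0.16. Ccl17, a chemokine, was the 1 gene of 32 called on the chemokine list (-2.88 ± 0.64, adjusted p 0.018). It was at or below 1.26 CPM in every library and lost its call without female 2, female 4 or male 6 (adjusted p up to 0.086).

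Of 20 progenitor and fibroblast markers 3 were higher and 0 lower, with a median of 0.40. Lum, the matrix proteoglycan lumican, was at 354, 259 and 197 CPM in the females and 70.6, 96.2 and 74.6 CPM in the males (1.75 ± 0.24, adjusted p 0.00058). Pi16, a marker of early progenitors, was at 111, 172 and 146 CPM against 33.2, 52.3 and 42.9 CPM (1.74 ± 0.36, adjusted p 0.011), and missed the threshold without male 6 (0.064). Cd55, given above, was the other. Of 16 mesothelial markers 1 was higher, Igfbp6, an IGF-binding protein, at 365, 325 and 238 CPM against 123, 106 and 115 CPM (1.43 ± 0.26, adjusted p 0.0060). Without males 6 and 8 the progenitor and mesothelial lists had 0 calls, and Lum, Pi16 and Igfbp6 had changes of 1.49, 1.45 and 1.55 (adjusted p 0.13, 0.35 and 0.17). Wt1, a mesothelial transcription factor, was at 33.5, 37.9 and 29.2 CPM against 10.8, 16.7 and 17.0 CPM, without overlap and with an adjusted p of 0.061. In WNT and BMP signalling 2 of 32 genes were higher (6.25%) and 3 lower (9.38%), beside 1.96% and 2.31% over all genes tested. Sfrp4, a secreted WNT modulator, was higher (16.6, 14.0 and 13.6 CPM against 1.63, 3.98 and 1.91 CPM, adjusted p 0.0099), and missed the threshold without male 6 (0.059). Its relative Sfrp1 was lower (10.4 to 12.2 CPM against 32.9 to 52.7 CPM, adjusted p 0.030), and was called without male 8 and in no other of the left-out fits (adjusted p up to 0.11). The ligand Wnt2b was higher (1.94 ± 0.49, adjusted p 0.034) and lost its call in all 6 of them (0.058 to 0.13). Sfrp4, Sfrp1 and Wnt2b were not called without males 6 and 8, with changes of 1.89, -2.21 and 1.99 (adjusted p 0.39, 0.15 and 0.39). The endothelial list had 0 calls of 18, 2 positive changes and a median of -0.45. It summed to 859, 995 and 1550 CPM in females 1, 2 and 4. In males 6, 7 and 8 the sums were 756, 2500 and 1460 CPM, with male 6 below every female. The median of the list was 0.71 at 12 weeks on the regular diet and -0.72 on the high-fat diet. Cldn5, the tight-junction claudin of endothelium, was at 44.6, 50.4 and 73.1 CPM against 64.6, 161 and 98.0 CPM, with overlap (adjusted p 0.062). Its change was -0.94, and -1.52 without males 6 and 8, where male 7, the highest male, is the only male left.

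Some of the genes with the lowest fold changes were high in males 6 and 8, the libraries with most reproductive-tract transcripts, and low in male 7. Male 7 was not free of such transcripts, with an oviduct and uterus epithelium sum of 65.9 CPM against 18.2 to 31.3 CPM in the females. Akr1b7, an aldose reductase-like protein of the male tract, was at 4300, 2.57 and 10900 CPM in males 6, 7 and 8 and at 0.0403 to 0.985 CPM in the females. Defb42, an epididymal defensin, was at 939, 0.799 and 568 CPM in those males and at 0.138 to 0.430 CPM in the females. Male 7 lay near the females for both. Without males 6 and 8 their changes were -2.82 and -1.72, with adjusted p of 0.75 and 0.84, against -13.76 and -11.02 with all 6 libraries (adjusted p 0.032 and 0.024). Both calls were also lost without female 1, female 2, female 4 or male 6. Lcn2, a lipocalin of epithelia and neutrophils, was at 630, 39.4 and 25.7 CPM in males 6, 7 and 8 and 1.75 to 2.58 CPM in females, and was not called (adjusted p 0.070). On the epididymis list 7 of 27 genes were lower and 0 higher with all libraries, and 0 without males 6 and 8, where the median of the list went from -8.50 to 0.00. Dcdc2a, a microtubule-binding protein, was different, at 115, 59.9 and 4.02 CPM in males 6, 7 and 8 against 0.0691 to 0.182 CPM in females. Its change was -9.03 with all libraries and -9.03 without males 6 and 8 (adjusted p 0.018 and 0.075), and the Dcdc2a call was lost without female 1, female 2, female 4 or male 6. Tmem150c, a membrane protein, was at 195, 2.89 and 22.0 CPM in males 6, 7 and 8 and 0.101 to 0.281 CPM in females. The potassium channel Kcnj16 was at 37.1, 7.62 and 88.9 CPM in those males and 0.181 to 0.430 CPM in females. Tmem150c and Kcnj16 were called in all 6 left-out fits, with male 7 the lowest male. Without males 6 and 8 their changes shrank to -3.73 and -4.46, against -8.39 and -7.00 with all 6 libraries. The ciliogenesis factor Foxj1, 1 of 17 called on the list of oviduct and uterus epithelium, was at 42.6, 27.2 and 1.66 CPM in males 6, 7 and 8. Spata18, 1 of 13 called on the germ cell list, was at 3.94, 3.66 and 0.347 CPM in them. The calls of Foxj1 and Spata18 were lost without female 1, female 2, female 4 or male 6, and the epididymis list had 0 to 9 calls with 1 library left out. The part of reproductive-tract RNA in these differences was not tested beyond leaving those libraries out.

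Major urinary protein genes, a cluster of near-identical lipocalins known from mouse liver, had called members in both directions. Other members were not called, among them Mup1, Mup11, Mup14, Mup17 and Mup19 (-0.93, 1.70, -1.02, -1.18 and 1.38). Mup18 was at 251, 261 and 175 CPM in the females and at 0, 0.0888 and 0.441 CPM in males 6, 7 and 8. Its change was 10.10 ± 1.28 (adjusted p 0.00024), and it was called in all 6 left-out fits. Mup20, the male pheromone darcin, was at 0.743, 0.121 and 0.331 CPM against 26.5, 6.32 and 11.3 CPM (-5.18 ± 0.82, adjusted p 0.0018). Mup16 was at 25.7, 21 and 13.5 CPM against 4.92, 0.426 and 1.63 CPM, and its call (adjusted p 0.023) was lost without female 1, female 2, male 7 or male 8 (adjusted p up to 0.079). The change of Mup16 was 3.11, and after 12 weeks on the regular diet it was called in the opposite direction (-2.32, adjusted p 0.043). Mup7 was at 12.1, 6.14 and 5.72 CPM in the females and 115, 13.6 and 52.9 CPM in the males (-2.92, adjusted p 0.025), and Mup10 at 13.8, 8.13 and 4.3 CPM against 0.687, 0.16 and 0.366 CPM (4.43, adjusted p 0.037); both were picked after their values were seen. The Mup7 call was lost without female 2, female 4 or male 6, and the Mup10 call in all 6 left-out fits. Without males 6 and 8 the changes of Mup7 and Mup10 were -0.76 and 5.76, and Mup1, Mup14 and Mup17 turned to 1.84, 0.92 and 2.06. At 12 weeks on the regular diet Mup1, Mup7, Mup14 and Mup17 were called lower in females (-5.59, -7.32, -6.62 and -6.67). Mup11 and Mup19, with positive changes at 2 weeks, were also called lower there (-3.33 and -2.89). So were Mup3, Mup5, Mup8, Mup12, Mup20 and Mup21. Mup10 and Mup18 were not called there (0.52 and 1.85), nor were Mup2, Mup4, Mup6, Mup9 and Mup15. Mup20 was not called without males 6 and 8, with a change of -3.96 (adjusted p 0.066). Because these genes share sequence, the count of each one is uncertain.

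Of 37 detoxification enzymes 1 was higher (2.7%) and 3 lower (8.11%), beside 1.96% and 2.31% over all genes tested. Cyp2b10, an inducible cytochrome P450, was at 0.121, 0.443 and 0.182 CPM against 2.02, 1.44 and 2.62 CPM (-3.03 ± 0.54, adjusted p 0.0047), and the carboxylesterase Ces2g was at 23.6 to 26.2 CPM against 7.02 to 11.4 CPM (1.37 ± 0.26, adjusted p 0.0074). Cyp1b1 was lower (adjusted p 0.027) and lost its call without female 1, female 2, female 4, male 7 or male 8 (up to 0.11). Cyp2b10, Ces2g and Cyp1b1 were not called without males 6 and 8, with changes of -2.53, 1.12 and -1.62 (adjusted p 0.16, 0.29 and 0.14). Of 29 insulin and IGF genes 1 was higher and 1 lower (3.45% each), beside the same shares over all genes. The higher gene was Igfbp6, given above and called in all 6 left-out fits. The lower gene was the insulin receptor adaptor Grb14, at 4.49 to 5.39 CPM against 16 to 19.4 CPM. Its groups were far apart, yet the call (-1.80 ± 0.47, adjusted p 0.038) was lost in all 6 left-out fits (0.061 to 0.13). Of 24 cell cycle genes 0 were higher and 2 lower, the cyclin Ccnd1 and the mitotic activator Cdc20, and 1 of the 24 had a positive change (median -0.91). The Ccnd1 call was lost without female 2, female 4, male 6 or male 8, and the Cdc20 call in all 6 left-out fits. Of 24 immediate early and stress genes Jun (adjusted p 0.033) and Egr2 (0.048) were lower. The Jun call was lost without female 1, female 2, female 4, male 7 or male 8, and the Egr2 call in all 6 left-out fits. Ncmap, 1 of 10 Schwann cell markers, was lower and highest in male 6 at 6.28 CPM, and its call was lost without female 1, female 2, female 4 or male 6.

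No gene was called on 14 of the 43 lists. They were the lists of adipocytes (0 of 20), endothelium, lymphatic endothelium, mural cells, macrophages, dendritic cells, mast cells, ovary, exocrine pancreas, oxidative phosphorylation (0 of 38), branched-chain amino acid breakdown (0 of 22), MHC class II (0 of 11), interferon response (0 of 26) and the circadian clock (0 of 19). The changes on the oxidative phosphorylation list were small and mostly positive, 36 of 38, beside 50.6% of all genes tested, with a median of 0.34. The list summed to 10600, 10200 and 11300 CPM in females 1, 2 and 4. In males 6, 7 and 8 the sums were 10600, 7480 and 7970 CPM, so male 6 lay within the females. The median of the list was -0.11 at 12 weeks on the regular diet and 0.30 on the high-fat diet. The smallest p was that of Ndufa9, at 42.2, 38.7 and 48.1 CPM against 36.5, 20.6 and 27.2 CPM (adjusted p 0.18). Lpl, lipoprotein lipase of the adipocyte list, was at 5120, 8160 and 7780 CPM against 12000, 12600 and 12000 CPM, without overlap, and was not called (-0.80 ± 0.36, adjusted p 0.23).

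The female to male comparison was also made after 12 weeks on the regular diet and after 2 weeks on the high-fat diet. None of the 3 comparisons shares a library. After 12 weeks on the regular diet 774 genes were higher (4.44% of tested) and 1070 lower (6.14%), together 10.6%, and all 3 of those males had Crisp1 at 3020 CPM or more. After 2 weeks on the high-fat diet 356 were higher (2.04%) and 296 lower (1.7%), together 3.74% of tested. There male 13 had Crisp1 at 6500 CPM, and female 1 had the acute-phase lipocalin Lcn2 at 2200 CPM against 1.44 and 1.61 CPM in the other 2 females. Of the 342 genes higher after 2 weeks on the regular diet, 172 were also called higher at 12 weeks (50.3% of the 342 and 22.2% of the 774), and 133 on the high-fat diet (38.9% of the 342 and 37.4% of the 356). Of the 403 lower genes 237 were also called lower at 12 weeks (58.8% of the 403 and 22.1% of the 1070), and 123 on the high-fat diet (30.5% of the 403 and 41.6% of the 296). The direction was the same at 12 weeks for 325 of the 342 and 384 of the 403, and on the high-fat diet for 330 and 384.

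Called the same way in all 3 comparisons were 89 genes higher and 99 lower in females, and 75 of these were also called in each of the 6 fits with 1 library left out. Sult1e1 gave -9.32, -9.87 and -9.80 on the regular diet at 2 weeks, at 12 weeks and on the high-fat diet. Hoxc10 gave 5.31, 4.13 and 4.59, and Ptgfr 3.73, 3.22 and 2.89. C7 gave -4.93, -4.03 and -5.45, Col6a5 -4.26, -2.95 and -5.26, and Hsd11b1 -2.36, -1.87 and -2.27. Mest gave -2.96, -2.88 and -1.72, and Hp -2.11, -2.11 and -1.97. Trdn was called in all 3, with changes of 7.70, 3.29 and 5.23. Smaller but steady differences in the 75 were Tmem98, a membrane protein (0.88, 0.72 and 0.76), the RNA helicase Ddx19b (-0.84, -0.65 and -0.82) and the tetraspanin Tspan5 (-1.19, -1.21 and -1.14). Cyp2d9, a male-type cytochrome P450 of mouse liver with close relatives, was at 0 in the 3 females and at 4.03, 1.76 and 1.25 CPM in the males, and was among the 75.

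Other genes were called in some of the comparisons. Mup18 had a change of 10.10 here, of 1.85 at 12 weeks (adjusted p 0.15) and of 5.57 on the high-fat diet (0.0069). Ighg2b had a change of 6.28, of 0.05 at 12 weeks (adjusted p 0.98) and of 6.87 on the high-fat diet (0.0052), and the median over the variable segments was 3.67, 1.12 and 3.37. Hoxc9 gave 1.47, 1.04 and 0.74, called on the regular diet at both times. Of the 23 thermogenic genes 7, 6 and 11 were called higher and 0, 1 and 0 lower, in the same order of comparisons. Their medians were 1.01, 0.99 and 1.97. Over all genes tested 1.96%, 4.44% and 2.04% were called higher. Ucp1, called in each of the 3, gave 7.74, 10.36 and 11.46 (adjusted p 0.019, 0.0088 and 0.0055). The differences between the comparisons were tested as interactions. No gene was called by edgeR for sex by time on the regular diet (0.0%) or for sex by diet at 2 weeks (0.0%), with 1666 and 1201 genes at an unadjusted p under 0.05 and smallest adjusted p of 0.11 and 0.65. DESeq2 called 96 and 79 genes. A sex difference called in 1 comparison and not in another was therefore not shown to differ between them by the edgeR test.

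**Figure D5:**
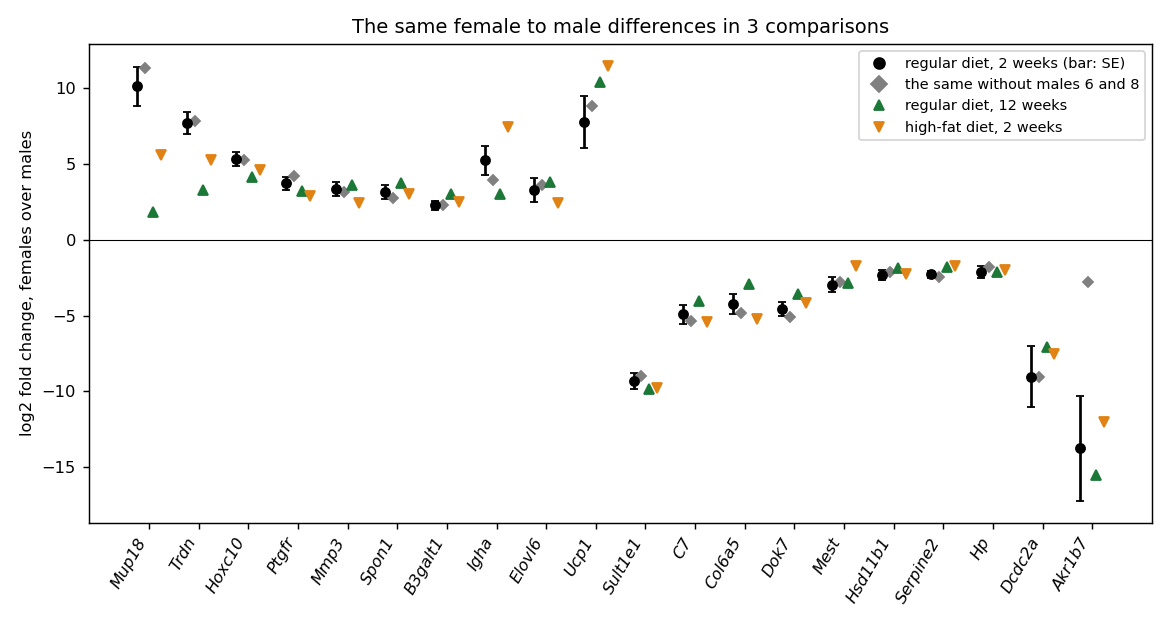
Log2 fold change, females over males (y axis), of 20 genes on the regular diet at 2 weeks (black, bar: SE), the same without males 6 and 8 (grey), at 12 weeks (green) and on the high-fat diet at 2 weeks (orange). The values of Sult1e1 lie between -9.87 and -9.00, and that of Akr1b7 goes from -13.76 to -2.82 without males 6 and 8.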

How the data were processed

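RNA-seq of visceral fat was measured in the 6 libraries compared and in the other 18 adipose libraries of the series. The authors deposited expected counts per gene symbol. Per the submitters' processing notes, kallisto, edgeR, DESeq2 and GRCm38 were named, and versions and roles are not given in the sources used here. The expected counts were rounded to whole numbers. Totals were 44.7 to 105 M over the 24 adipose libraries and 53.6 to 105 M over the 6. Pairs of the 6 libraries, of the same or the other sex, correlated at Pearson r 0.891 to 0.982 (log2 CPM, across genes). None of the 6 was therefore counted as a duplicate.

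Samples were grouped by tissue, diet, time and sex as labelled. Counts of the 24 adipose libraries were fitted together in 8 groups with edgeR 4.0.16 (R 4.3.3), using TMM scaling, filterByExpr by group and the robust quasi-likelihood test. The p-values were adjusted by Benjamini-Hochberg over all genes tested, at a threshold of 0.05. Autosomes were assigned from GENCODE M21 on GRCm38, with RefSeq synonyms for 929 symbols. The SE of a log2 fold change is its size divided by the square root of F, an approximation. CPM uses effective library sizes, and list scores are means of log2 CPM with a prior count of 2. Changes are female over male. Promoters are from RefSeq on GRCm38.p6. DESeq2 1.42.0 was an alternative. The fitting was tested on simulated data.

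The genes named are the 15 with the highest and 15 with the lowest change among called, non-overlapping genes with a mean log2 CPM of at least 1, without predicted or reproductive-tract genes, plus up to 5 members of each of the 43 lists by p. 1 of these genes is not reported here. Genes outside that rule were named for their role or after their values were seen. Of 915 listed symbols 909 were found. The groups, members and lists were chosen with earlier results of these data known. Alternatives were scaling, filter, robust fitting, a fold threshold, the compared libraries alone, the epididymis list removed or as a covariate, and libraries left out. A muscle covariate and leaving out females 2 and 4 were added after seeing the data.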

Additional observations from a re-analysis of the deposited data

How the results depend on the processing

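The counts of genes higher and lower in females, 342 and 403, stayed within 1.5 times under median-of-ratios scaling, no filter, no robust fitting and removal of the epididymis list, as did the lower count with the compared libraries alone. They were 774 and 1108 with DESeq2, 111 and 134 with a fold threshold of 1.5, 90 and 109 with the epididymis score as a covariate, and 12 and 30 without males 6 and 8. They were 111 and 104 with the muscle score as a covariate and 66 and 30 without females 2 and 4, both chosen after seeing the data, and 193 genes were higher with the compared libraries alone. With 1 library left out they ranged from 100 to 191 and from 82 to 314. The 12-week comparison called 1844 genes, 3666 with DESeq2, 1203 with no filter, 87 with the epididymis covariate and 405 to 4330 with 1 library left out. The high-fat comparison called 652 genes, 1816 with DESeq2, 251 with the covariate, 22 with the compared libraries alone and 230 to 858 with 1 library left out. The sex by time interaction called 0 genes, 96 with DESeq2, 1 with the compared libraries alone (Grip2) and 0 to 3 with 1 library left out. The sex by diet interaction called 0 genes, 79 with DESeq2, 1 without males 6 and 8 (Gm2541) and 0 with 1 library left out. The causes were not tested.

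Of 94 called named genes 94 kept their call with median-of-ratios scaling, 89 with DESeq2, 10 without males 6 and 8 and 19 without females 2 and 4. With the compared libraries alone 54 of the 94 kept their call, with the epididymis covariate 37 and with the muscle covariate 39. Igha and Akr1c14 were not called by edgeR with the compared libraries alone (adjusted p 0.052 and 0.077). The direction turned for Rnase10 (1.39 with the epididymis covariate, 1.62 without males 6 and 8, and -8.71 to 1.09 with 1 library left out) and Adam28 (0.96 with the covariate and 0.36 without males 6 and 8). It also turned for Myh1 (-0.38 with the muscle covariate and -0.67 without females 2 and 4), Mylpf (-0.33 and -1.44), and, without females 2 and 4, Cidea (-0.43), Otop1 (-0.53) and Cpt1b (-0.48).

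No paired analysis was possible because the females are numbered 1, 2 and 4 and the males 6, 7 and 8, so the groups share no replicate number. With 3 libraries a group, and 1 in the fits without a pair of libraries, a lost call does not show that a difference is absent. Low levels, such as Sult1e1 in females, rest on few counts.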
